A study of Sus scrofa with 8 samples.

Results

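Long noncoding RNAs (lncRNAs) are long transcripts that are not known to encode a protein. Some stay in the nucleus, where they hold together bodies such as paraspeckles and nuclear speckles or coat a chromosome, some are the precursors of small nucleolar RNAs (snoRNAs) or microRNAs, and many have no described role. The genes described here are those that the pig annotation in the deposited table calls lncRNA and that reached a mean of at least 20 CPM (the count of a gene scaled to the total count of its biopsy) over all 8 skin biopsies. This gave 90 genes of 6791 annotated lncRNA genes and of 31907 distinct genes in the table. Members were chosen by their measured mean CPM in these same biopsies, so abundance is given as a description only. The treatment and the animal were not part of that rule, but 16 genes reached the limit in the mean of 1 animal only (4 in pig 14 and 12 in pig 13) and 7 in the mean of 1 treatment only, so for these the choice is not independent of the comparison.

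The biopsies came from the skin of 2 wild-type Yorkshire swine, called pig 14 and pig 13. Each animal gave 2 sites that were injected into the skin with 200 ng of interleukin-15 (IL-15) in 100 µl of saline and biopsied 3 h later, and 2 control sites with no IL-15 injection. IL-15 is a cytokine that sustains natural killer cells and memory T cells. Injected sites were 12d and 12c in pig 14 and 12e and 12c in pig 13, and control sites were 7e and 6b in pig 14 and 7b and 6b in pig 13. All injected sites thus carry site number 12 and the controls 6 or 7, and no site injected with saline alone was analysed here, so IL-15, the injection and the position cannot be told apart. Biopsies of one animal are not separate animals, so p-values measure the spread between sites within these 2 pigs. Total RNA was depleted of ribosomal RNA before sequencing, and total counts ran from 28471089 to 36070107. Unless marked as plain CPM, values by biopsy are CPM after TMM scaling (edgeR's correction for differences in composition), listed in the order of the sites above (within an animal, injected sites before control sites), and fold changes are log2 values with their standard error from edgeR's quasi-likelihood fit with treatment and animal in the model. Calls were made at an adjusted p (Benjamini-Hochberg, over all 19862 genes tested) under 0.05.

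Keratin and collagen transcripts marked the tissue as skin, with KRT5 (a keratin of basal keratinocytes) at 3171 to 10850 CPM and COL1A1 (a chain of type I collagen) at 8115 to 102531 CPM. The lowest COL1A1 and the highest KRT5 value both belonged to the pig 13 control site 7b, so the balance of these markers stood apart in that biopsy. Of the 90 genes, 16 had their highest level in that biopsy (17.8%, against 19.8% of all genes) and 15 their lowest (16.7%, against 18.3%). In whole biopsies, fewer cells of a type and less RNA per cell cannot be told apart.

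The annotation of the 90 genes was mixed. Only 23 had a symbol in the tables used, and none of 36 symbols of well-known mammalian lncRNAs that were looked up, MALAT1, NEAT1, XIST, H19 and MEG3 among them, named a gene in the deposited table. Set beside the RefSeq genes of the same build (Sscrofa11.1), 23 of the 90 lay over a RefSeq noncoding RNA and 7 over no RefSeq gene. A further 20 were the same gene as one that RefSeq calls protein-coding, so the lncRNA label is not shared by both annotations for them. These included HDLBP, S100A16, TMEM30B, GNG12, PHLDA3, IER2, TMEM18, PAIP2B, NDUFA7, TWIST2, TMEM250, PHF20, TIMM13, TANK, GNG7, CYS1, TMEM80, LOC110260611 and LOC100620498. Another 33 overlapped the span of a RefSeq coding gene, in whole or in part. A further 4 lay on scaffolds that also carry ribosomal RNA genes, and 3 lay on unplaced scaffolds that were not compared. None overlapped the span of a coding gene of the deposited annotation, but 24 shared exon bases with another annotated gene, mostly another lncRNA. The strand setting of the counting was not stated, and reads of such overlapping pairs may therefore be shared or misassigned.

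The genes were long, with a median summed exon length of 6004.5 bases against 2873 bases over all annotated lncRNA genes, and lengths from 821 to 20637 bases. CPM favours long genes, so levels are compared between genes per kilobase of exon. Most were steady between biopsies: the highest of the 8 values was less than 2 times the lowest for 69 genes, and the median ratio was 1.51. Only 4 genes varied more than 4-fold (ENSSSCG00000051274, ENSSSCG00000051428, ENSSSCG00000047735 and ENSSSCG00000047123), beside ENSSSCG00000044599, which was at 0 in 3 biopsies. In 54 of the 90, every biopsy was at or above 20 CPM. Genes just inside the limit had means of 20.4, 20.2 and 20.1 CPM (ENSSSCG00000047946, ENSSSCG00000043089 and LOC100517712), and the next 3 lncRNA genes outside it had 19.96, 19.70 and 19.65 CPM (ENSSSCG00000049283, ENSSSCG00000041959 and ENSSSCG00000045895). At this level the counting error was small, since LOC100517712 still had 472 to 791 reads in each biopsy.

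**Figure D1:**
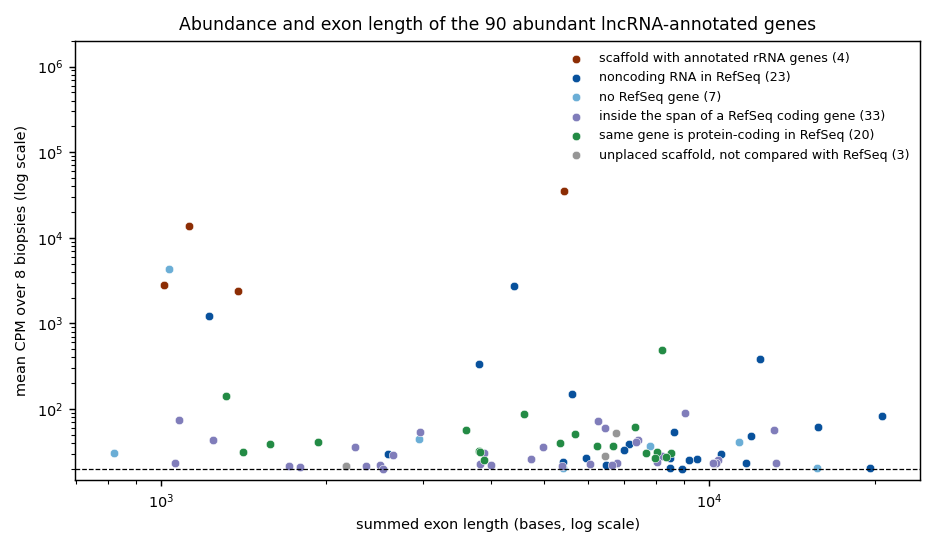
Mean plain CPM over the 8 biopsies (vertical, log scale) against summed exon length in bases (horizontal, log scale) for the 90 genes, coloured by what RefSeq or the scaffold holds at the same place, with the dashed line at 20 CPM. The 4 genes on scaffolds with ribosomal RNA genes lie between 2360 and 35261 CPM, and 78 of the 90 lie under 100 CPM.

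Most of the lncRNA-annotated signal lay beside ribosomal RNA genes. The 4 genes on such scaffolds held 81.2% of the summed mean CPM of the 90. ENSSSCG00000041461 had a mean of 35261 CPM, ENSSSCG00000041875 13807 CPM and ENSSSCG00000045913 2782 CPM, all on scaffold AEMK02000489.1. ENSSSCG00000041596, on scaffold AEMK02000695.1, had 2360 CPM. On the first scaffold, ENSSSCG00000041461 covers bases 37959 to 44045 on the minus strand and reaches into RN18S, the 18S ribosomal RNA gene, at 43232 to 45101 on the plus strand. ENSSSCG00000045913 covers 46871 to 48040 on the minus strand, close to a 5.8S ribosomal RNA gene on the plus strand that ends at 46723. On the second, ENSSSCG00000041596 (11543 to 13129, minus strand) likewise lies beside a 5.8S gene on the plus strand that ends at 10348. Transcripts of 18S and 5.8S genes are processed from one precursor in mammals. RN18S itself, though a target of the depletion, still had 3559, 3184, 1487 and 1584 CPM in IL-15-injected sites, against 13619, 4984, 5539 and 3658 CPM in control sites. The 90 genes together took 5.17% to 7.05% of all counts in IL-15-injected sites and 6.48% to 8.22% in control sites, and without these 4 genes the other 86 took 1.03% to 1.36% in IL-15-injected sites and 1.23% to 1.53% in control sites. Whether reads of ribosomal RNA were counted to the 4 genes was not tested.

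The third most abundant gene, ENSSSCG00000048719 (chr4:53952716-53953839, minus strand), lay over no RefSeq gene and 301729 bases from the nearest annotated coding gene. Its levels were 4363, 3913, 2147 and 4416 CPM in IL-15-injected sites, against 6298, 5460.2, 2648 and 5405 CPM in control sites. The groups overlapped, and the pig 13 sites 12e and 7b were the lowest of their groups. With 4181 CPM per kilobase it stood below only ENSSSCG00000041875 (12423 CPM per kilobase) and ENSSSCG00000041461 (6451 CPM per kilobase).

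A group of 4 neighbouring genes near FRMD8 on chromosome 2 was abundant as well. ENSSSCG00000047432 lies at chr2:6749400-6750686 (plus strand), ENSSSCG00000048856 at chr2:6752140-6757157 (minus strand), ENSSSCG00000041050 at chr2:6753571-6794973 (plus strand) and ENSSSCG00000044913 at chr2:6797358-6803782 (minus strand). The first 3 lie over the RefSeq lncRNA LOC102163816 and the last overlaps LOC100513133. In human, FRMD8 lies close to NEAT1, the lncRNA that builds paraspeckles, and MALAT1, an abundant RNA of nuclear speckles, but the tables used give the pig genes neither name. ENSSSCG00000048856 and ENSSSCG00000041050 share 2724 exon bases on opposite strands.

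Per kilobase, ENSSSCG00000047432 reached 1003 and ENSSSCG00000048856 624 CPM, against 87.9 for ENSSSCG00000044913 and 30.5 for ENSSSCG00000041050. ENSSSCG00000048856 had 2257, 2676, 2449 and 3123 CPM in IL-15-injected sites, against 2597, 3073, 2719 and 3091 CPM in control sites, with overlapping groups. ENSSSCG00000047432 varied less, with 1134, 1292, 1145 and 1309 CPM in IL-15-injected sites, against 1052, 1312, 1208 and 1354 CPM in control sites. Neither moved with IL-15 beyond its error, at a log2 fold change of -0.13 ± 0.16 for ENSSSCG00000048856 and -0.01 ± 0.14 for ENSSSCG00000047432. ENSSSCG00000041050 had 310.1, 323, 233 and 468 CPM in IL-15-injected sites, against 346, 402, 467 and 471 CPM in control sites, and the pig 13 site 12e was the lowest of the 8. ENSSSCG00000044913 had 254, 291, 279.8 and 246 CPM in IL-15-injected sites, against 302, 293, 709 and 303 CPM in control sites. Every injected site was below every control site, although by little apart from the pig 13 site 7b, which stood at more than 2 times any other biopsy. The log2 fold change of -0.54 ± 0.27 did not pass the test (adjusted p = 0.96) and was -0.16 ± 0.10 without site 7b. The neighbouring coding gene FRMD8 (a FERM domain protein) was far lower and steady, at 33.9 to 46.2 CPM. Of 20 paraspeckle and nuclear speckle proteins, SFPQ, NONO and SRRM2 among them, 0 were called higher or lower between treatments or between animals. Of all genes, 0.0352% were called between treatments and 10.7% between animals, so few calls among 20 genes would be usual. The median log2 fold change of the 20 was 0.03 for IL-15 over control and 0.04 for pig 14 over pig 13.

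**Figure D2:**
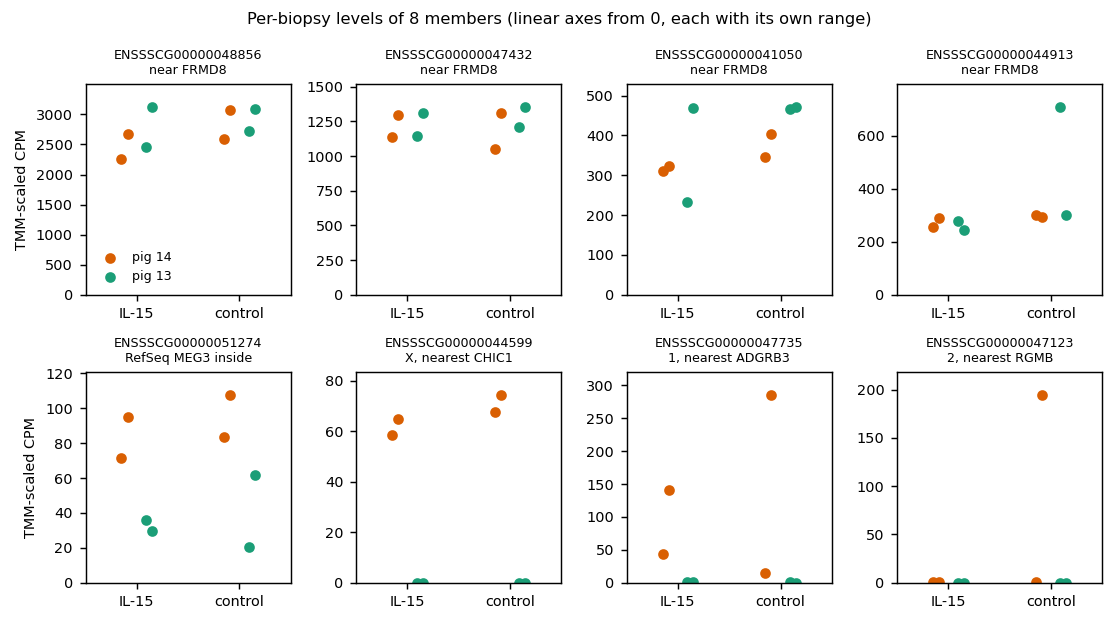
TMM-scaled CPM by biopsy (vertical, linear from 0, a range of its own in each panel) for 8 genes, with IL-15-injected sites left of control sites and pig 14 in orange and pig 13 in green. The top row holds the 4 genes near FRMD8, where ENSSSCG00000044913 has 1 high control site, and the bottom row holds 4 genes that differ mainly by animal or by single biopsy.

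No abundant lncRNA-annotated gene changed with IL-15 at 3 h by the adjusted test. Of the 90, 0 were called higher and 0 lower, against 0.0352% of all genes called higher and 0% called lower. DESeq2 also called 0 of the 90, against 0.31% of all genes it tested. At an unadjusted p under 0.05, 4 of the 90 were higher and 2 lower, against 2.39% of all genes higher and 2.15% lower. The median log2 fold change of the 90 was -0.02, beside -0.01 over all genes tested, and 87 of the 90 stayed within 0.5 of 0. Their median standard error was 0.12, beside 0.17 over all genes. No marker of the cell type lists was called with IL-15.

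The nearest to a difference were 6 genes. ENSSSCG00000045913, beside the 5.8S gene, had 1894, 3364, 1938 and 1418 CPM in IL-15-injected sites, against 4104, 4845, 2637 and 2469.7 CPM in control sites. It was lower in both animals taken alone, with log2 fold changes of -0.77 in pig 14 and -0.61 in pig 13, and its pooled log2 fold change was -0.69 ± 0.21 (unadjusted p = 0.0071, adjusted p = 0.89). RN18S on the same scaffold had a log2 fold change of -1.52 ± 0.29 (adjusted p = 0.37), and its part in that value was not tested. TMEM30B, a subunit of the flippases that move phospholipids across the plasma membrane, had 72.7, 67.5, 64.5 and 61.7 CPM in IL-15-injected sites, against 57.7, 55.4, 53.4 and 56.3 CPM in control sites. Its groups did not overlap, which 2 of the 90 genes (TMEM30B and ENSSSCG00000044913) and 2.07% of all genes showed, and its log2 fold change was 0.26 ± 0.08 (unadjusted p = 0.0088, adjusted p = 0.95).

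ENSSSCG00000050692, at chr5:22489711-22491128 and overlapping the RefSeq span of LRP1 (a lipoprotein receptor), had 75.2, 92.5, 72.2 and 90.5 CPM in IL-15-injected sites, against 65.9, 78.2, 59.5 and 59.4 CPM in control sites. Its log2 fold change of 0.34 ± 0.11 came with overlapping groups, since the pig 14 control site 6b was above 2 injected sites. ENSSSCG00000039704, on chromosome 14 near RPS24 (a ribosomal protein gene), had 19.4, 27.1, 22.8 and 22.1 CPM in IL-15-injected sites, against 17.8, 17.3, 16.3 and 20.01 CPM in control sites. Within each animal its injected sites were above its controls, and its log2 fold change was 0.36. It reached the abundance limit in the mean of the injected sites only, so this difference is given as a description. The other 2 were ENSSSCG00000051575, on chromosome 18 between MKLN1 and KLF14, with a log2 fold change of 0.27 ± 0.12, and ENSSSCG00000041401, which has SNORA73 genes in its span, with -0.33 ± 0.15. None of the 6 had an adjusted p under 0.89. IER2, an immediate-early gene that rises within minutes of many stimuli, had 36.6, 38.5, 40.1 and 42.03 CPM in IL-15-injected sites, against 35.5, 39.7, 36.9 and 38.9 CPM in control sites, a log2 fold change of 0.06 ± 0.09.

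ENSSSCG00000047123, on chromosome 2 beside RGMB, showed the widest fold change of the 90, at -5.95 ± 2.61. It had 0.692, 1.03, 0.131 and 0.265 CPM in IL-15-injected sites, against 0.495, 194, 0.0546 and 0.242 CPM in control sites. The value rested on the pig 14 control site 6b, with 5093 reads against 2 to 28 in each of the other 7 biopsies, and without that biopsy the log2 fold change was 0.63. This gene reached the abundance limit through that biopsy alone. RGMB (a co-receptor for bone morphogenetic proteins), 1857 bases away, had 40.2, 43.1, 36.2 and 32.6 CPM in IL-15-injected sites, against 34.6, 45.4, 29.1 and 36.8 CPM in control sites, and was highest in that same biopsy. With any of the 8 biopsies left out, 0 of the 90 were called for IL-15.

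**Figure D3:**
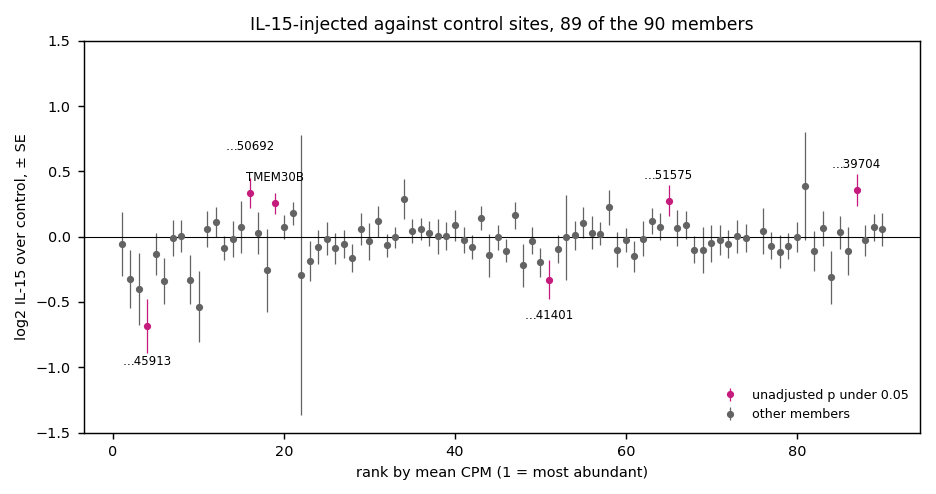
Log2 fold change of IL-15-injected over control sites with its standard error (vertical) for 89 of the 90 genes, ordered by mean CPM (horizontal, rank 1 the most abundant). The 6 genes at an unadjusted p under 0.05 are in pink, and ENSSSCG00000047123, at -5.95, lies outside the axis and is not drawn.

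The response to IL-15 was also compared between the animals, as an interaction of treatment and animal. None of the 90 was called (0% of all genes), DESeq2 called 0 of the 90 (0.615% of the genes it tested), and 6 had an unadjusted p under 0.05, against 8.22% of all genes. The smallest adjusted p among them was 0.39, for ENSSSCG00000046947 on chromosome 1, whose log2 fold change was 0.36 in pig 14 and -0.56 in pig 13. TWIST2 had a log2 fold change of -0.53 in pig 14 and 0.25 in pig 13 (unadjusted p of the difference 0.0062, adjusted p = 0.48). Without the pig 13 control site 6b, which leaves site 7b as the lone control of pig 13, ENSSSCG00000044913 was called (log2 difference 1.31 ± 0.19, adjusted p = 0.016, beside 1.55% of all genes called in that fit), with the lone biopsy assumed to vary like the others.

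Between pig 14 and pig 13, 17 of the 90 genes were called (18.9%), 8 higher and 9 lower in pig 14, against 10.7% of all genes, 6.39% higher and 4.34% lower. Among all tested lncRNA genes 9.91% were called. The median absolute log2 fold change was 0.15 for the 90 and 0.23 over all genes, with median standard errors of 0.12 and 0.17. The larger share called thus came with smaller differences and smaller errors. Of the 17, 4 had reached the limit of 20 CPM in 1 animal only (ENSSSCG00000044599 and ENSSSCG00000047735 in pig 14, ENSSSCG00000046945 and ENSSSCG00000047139 in pig 13), and their differences are given as descriptions without a test. Of the 74 genes at the limit in both animals 13 were called (17.6%), 6 higher and 7 lower in pig 14. DESeq2 called 23 of the 90, all 17 among them, and 18 of the 74, against 15.8% of all genes. The values of the animals did not overlap for 21 of the 90 and for 16 of the 74, against 18.6% of all genes. With libraries scaled by total counts alone the split was 8 higher and 29 lower, and the median log2 fold change was then -0.21 over all genes and -0.28 over the 90, beside 0.00 and -0.08 with TMM scaling. Of the 17, 16 were called in the same direction with that scaling, all but ENSSSCG00000045913. Marker genes moved with the animal as well. All 3 tested T cell markers were called higher in pig 14, where their summed level was 13.2 to 27.7 CPM, against 4.75 to 6.75 CPM in pig 13. All 3 tested red blood cell markers were higher too, at a summed 209.7 to 544 CPM in pig 14, against 5.76 to 22.4 CPM in pig 13. Of 6 fibroblast markers 1 was called higher, with a summed 136220 to 192233 CPM in pig 14 and 19099 to 108834 CPM in pig 13, and of 6 basal keratinocyte markers 1 was called lower, with a summed 6764 to 13370 CPM in pig 14 and 12792 to 21062 CPM in pig 13. Of the other lists, 1 of 3 macrophage and dendritic cell markers and 1 of 2 mast cell markers were called higher in pig 14, and no gene of the remaining lists was called. No gene of these lists that is in the table was at 0 in all 8 biopsies, and the part of these markers in the calls was not tested.

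The widest difference was that of ENSSSCG00000044599, on chrX:59283918-59286152 (minus strand), which has no RefSeq gene and lies 53134 bases from CHIC1. It had 58.5, 64.99, 67.7 and 74.4 CPM in pig 14, against 0, 0, 0 and 0.0302 CPM in pig 13. Over the 4 biopsies of each animal this was 7326 reads in pig 14 against 1 read in pig 13. No biopsy of pig 13 was above the level that a count of 0 allows (3 reads, 0.0832 to 0.105 CPM). The gene reached the abundance limit through pig 14 alone. In human and mouse the interval from CHIC1 to ZCCHC13 holds the X-inactivation centre, with the lncRNA genes XIST, JPX and FTX, but the tables used give no such name to the pig gene. Of 84 coding genes annotated on the Y chromosome 29 were tested, of which 15 were called lower and 3 higher in pig 14, and the 84 together took 598 to 657 plain CPM in pig 14 and 1103 to 1323 plain CPM in pig 13. KDM5D, a histone demethylase, had 0, 0, 0 and 0.0764 CPM in pig 14, against 20.8, 20.8, 25.1 and 25.4 CPM in pig 13, and ZFY, a zinc finger protein, had 0.692, 0.662, 0.565 and 0.420 CPM in pig 14, against 25.5, 29.7, 27.7 and 28.02 CPM in pig 13. The labels used here do not give the sex of the animals.

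The interval held 2 further abundant genes that were not called between the animals. ENSSSCG00000043604 (chrX:59541361-59608655) encloses the microRNA genes of miR-421, miR-374 and miR-545, which in human lie in FTX, and had 48.1, 50.8, 54.8 and 58.98 CPM in pig 14, against 44.4, 48.7, 38.95 and 48.8 CPM in pig 13. Its log2 fold change was 0.23 ± 0.11 (adjusted p = 0.19). ENSSSCG00000050149 (chrX:59502546-59521197) had 19.5, 23.8, 24.7 and 28.6 CPM in pig 14, against 16.4, 18.97, 11.7 and 21.7 CPM in pig 13, a log2 fold change of 0.48. It reached the abundance limit in the mean of pig 14 only, so that difference is given as a description. CHIC1 itself had 8.51, 5.85, 7.52 and 7.86 CPM in pig 14, against 4.73, 6.74, 5.24 and 5.35 CPM in pig 13, a log2 fold change of 0.43 ± 0.17 (adjusted p = 0.15).

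Among the other genes higher in pig 14, ENSSSCG00000037324 lies on chromosome 17, 1083 bases from OXT, the oxytocin gene, over the RefSeq lncRNA LOC100526084. It had 34.8, 35.2, 30.6 and 35.5 CPM in pig 14, against 18.8, 18.8, 21.01 and 20.5 CPM in pig 13, a log2 fold change of 0.78 ± 0.10 (adjusted p = 9.7e-04). The animals did not overlap. OXT and its neighbour AVP (vasopressin) had too few counts to be tested.

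HDLBP, which encodes the RNA-binding protein vigilin, had 584, 598, 631 and 617 CPM in pig 14, against 414, 399, 322 and 443 CPM in pig 13. Its log2 fold change was 0.62 ± 0.13 (adjusted p = 0.012), while SEPTIN2, a cytoskeletal gene that starts 773 bases away, had a log2 fold change of 0.03 ± 0.11 (adjusted p = 0.91). TWIST2, a transcription factor of dermal fibroblast development, had 31.8, 36.96, 48.4 and 51.1 CPM in pig 14, against 23.7, 26.4, 24.01 and 18.01 CPM in pig 13. It was higher in pig 14 at 0.85 ± 0.17 (adjusted p = 0.012), with the largest values in the control sites of pig 14. CYS1, which encodes the cilium protein cystin, had 32.8, 40.1, 30.6 and 32.2 CPM in pig 14, against 22.8, 21.3, 14.7 and 22.9 CPM in pig 13. CYS1 differed by 0.73 ± 0.14 (adjusted p = 0.0083), and KLF11, a transcription factor gene 6370 bases away, fell in pig 14 at -0.57 ± 0.10 (adjusted p = 0.007).

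Both calls on the ribosomal scaffolds went in the same direction. The more abundant ENSSSCG00000041461 and ENSSSCG00000041875 were not called, at -0.04 ± 0.25 (adjusted p = 0.93) and 0.71 ± 0.22 (adjusted p = 0.067). ENSSSCG00000041596 had 2714, 2911, 3220.2 and 3237 CPM in pig 14, against 1602, 1366, 1612 and 2531 CPM in pig 13, a log2 fold change of 0.78 ± 0.18 (adjusted p = 0.02). ENSSSCG00000045913 had 1894, 3364, 4104 and 4845 CPM in pig 14, against 1938, 1418, 2637 and 2469.7 CPM in pig 13, and its animals overlapped, at 0.73 ± 0.21 (adjusted p = 0.048). RN18S was also higher in pig 14, at 1.08 ± 0.29 (adjusted p = 0.039), and its part in these calls was not tested. ENSSSCG00000047735, a gene of 8 exons on chromosome 1 beside ADGRB3, had 43.2, 141, 14.3 and 286 CPM in pig 14, against 0.986, 1.54, 1.34 and 0.363 CPM in pig 13. It reached the abundance limit through pig 14 alone, and its values ranged widely within that animal, with the highest in control site 6b and the lowest in control site 7e. ADGRB3, an adhesion receptor gene, was too low to be tested.

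In pig 14, 9 genes were lower. ENSSSCG00000047139 lies 28743 bases from MAF (a transcription factor of lens, immune and other cells) in the deposited annotation, but overlaps the RefSeq span of MAF. It had 11.8, 13.4, 10.9 and 15.2 CPM in pig 14, against 36.2, 28.02, 36.2 and 22.2 CPM in pig 13. Its log2 fold change was -1.26. MAF had 131, 157, 153 and 187 CPM in pig 14, against 173, 209, 178 and 161 CPM in pig 13, a log2 fold change of -0.20 ± 0.13 (adjusted p = 0.34). ENSSSCG00000046945, which overlaps the RefSeq span of ENAH (an actin regulator), had 19.5, 20.5, 19.99 and 23.1 CPM in pig 14, against 33.3, 36.9, 47.8 and 37.6 CPM in pig 13, a log2 fold change of -0.90. Both of these reached the abundance limit through pig 13 alone. ENSSSCG00000031414, 23463 bases from CALML5 (a calcium-binding protein of differentiating keratinocytes), had 30.00, 36.00, 26.7 and 26.9 CPM in pig 14, against 51.99, 49.3, 59.1 and 46.5 CPM in pig 13. It differed by -0.80 ± 0.12 (adjusted p = 0.003), beside -0.75 ± 0.27 (adjusted p = 0.12) for CALML5, which was at 603 CPM in the pig 13 control site 7b and between 120.0 and 267 CPM elsewhere.

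ENSSSCG00000035711 and ENSSSCG00000049323 lie on opposite strands of chromosome 9 over the same RefSeq lncRNA, LOC102159171, and both span MIR205, the gene of a microRNA that is abundant in epithelia such as the epidermis. ENSSSCG00000035711 had 52.5, 74.6, 46.9 and 48.1 CPM in pig 14, against 108, 80.96, 136 and 92.2 CPM in pig 13, a log2 fold change of -0.92 ± 0.20 (adjusted p = 0.023). ENSSSCG00000049323, whose exons include the 69 bases of the microRNA hairpin, had 125, 146, 103 and 118 CPM in pig 14, against 166, 163, 215 and 157 CPM in pig 13, a log2 fold change of -0.52 ± 0.14 (adjusted p = 0.038). In both, the pig 13 control site 7b was the highest biopsy. It was also the highest for KRT5, whose log2 fold change between the animals was -0.89 ± 0.25 (adjusted p = 0.048), and the part of keratinocyte content in these calls was not tested.

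Of the 5 genes with snoRNA genes in their span, 2 were called. These are too few to set against the 18.9% of the 90 and the 10.7% of all genes called between the animals. ENSSSCG00000045735, on chromosome 18, encloses SNORA9 and had 26.7, 27.4, 27.7 and 25.96 CPM in pig 14, against 47.2, 46.4, 49.3 and 34.2 CPM in pig 13, a log2 fold change of -0.72 ± 0.12 (adjusted p = 0.0048). CCM2 (a scaffold protein of endothelial junctions), 141 bases away on the other strand in the deposited annotation, had a log2 fold change of 0.08 ± 0.11 (adjusted p = 0.71). In RefSeq, ENSSSCG00000045735 overlaps the span of CCM2. ENSSSCG00000044841, on chromosome 1 near SYNCRIP (an RNA-binding protein), encloses 2 snoRNA genes without a symbol and had 37.7, 32.3, 40.2 and 43.4 CPM in pig 14, against 42.3, 54.2, 53.1 and 48.9 CPM in pig 13. Its animals overlapped, and its log2 fold change was -0.38 ± 0.11 (adjusted p = 0.049997). The other 3 were not called: ENSSSCG00000041401 with SNORA73 at -0.51 ± 0.15 (adjusted p = 0.054), ENSSSCG00000046461 with SNORD49A, SNORD49B and SNORD65 at -0.19 ± 0.12 (adjusted p = 0.35), and LOC100620498 with SNORD88B and SNORD88C at -0.03 ± 0.09 (adjusted p = 0.85).

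PHLDA3, a target of p53 that restrains AKT signalling, had 32.2, 33.1, 36.8 and 38.6 CPM in pig 14, against 47.6, 47.3, 45.6 and 44.5 CPM in pig 13, a log2 fold change of -0.40 ± 0.09 (adjusted p = 0.02). ENSSSCG00000049696, 172 bases from SELENOT (a selenoprotein of the endoplasmic reticulum), had 33.3, 32.4, 34.1 and 32.7 CPM in pig 14, against 45.3, 49.99, 48.8 and 45.8 CPM in pig 13. Its spread within each animal was small, and its log2 fold change was -0.52 ± 0.08 (adjusted p = 0.0041), beside -0.22 ± 0.10 (adjusted p = 0.2) for SELENOT.

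**Figure D4:**
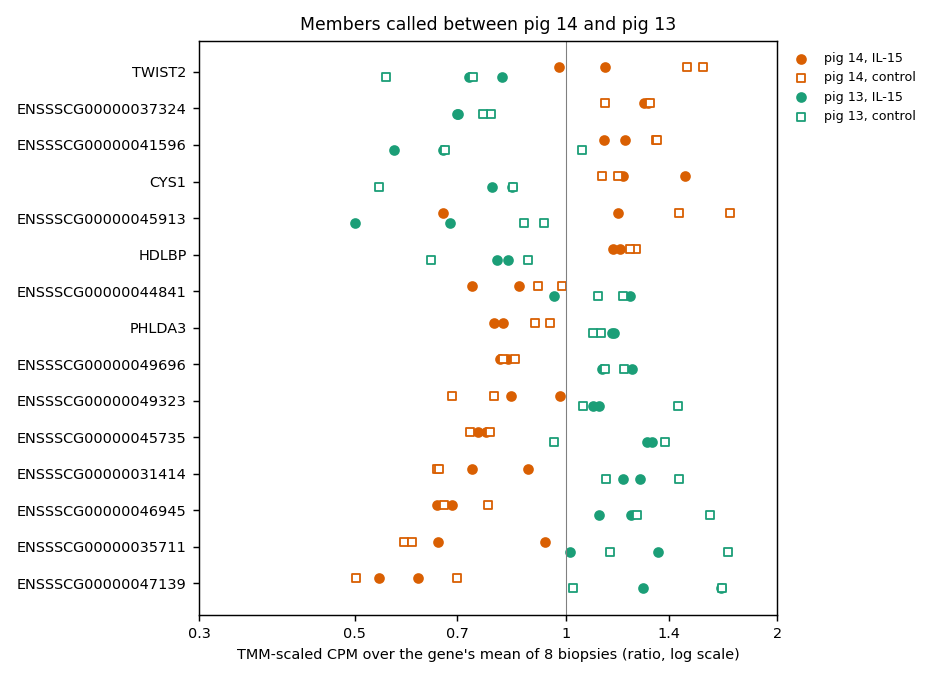
TMM-scaled CPM of each biopsy over the mean of the 8 biopsies of that gene (horizontal, ratio on a log scale) for 15 of the 17 genes called between the animals, with pig 14 in orange above pig 13 in green, filled circles for IL-15-injected and open squares for control sites. The animals separate for all 15 except ENSSSCG00000045913 and ENSSSCG00000044841, and ENSSSCG00000044599 and ENSSSCG00000047735, with values near 0 in pig 13, are not drawn.

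Of the 13 calls among genes at the limit in both animals 7 held whichever biopsy was left out, those of ENSSSCG00000037324, HDLBP, TWIST2, CYS1, ENSSSCG00000031414, ENSSSCG00000049696 and ENSSSCG00000045735. The other 6 kept their direction but not the call. ENSSSCG00000045913 was called only without the pig 14 site 12d (largest adjusted p 0.13 otherwise), and ENSSSCG00000044841 only without the pig 13 site 6b (0.12). ENSSSCG00000041596 and ENSSSCG00000049323 lost the call without 12d, 7e or 6b of pig 14 or 12e or 12c of pig 13 (largest adjusted p 0.071 and 0.13). ENSSSCG00000035711 lost it without 12d, 7e or 6b of pig 14 or 12e of pig 13 (0.082), and PHLDA3 without 12d of pig 14 or 12e or 12c of pig 13 (0.073).

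The gene that holds RefSeq MEG3 fell just short of the threshold. MEG3 is a lncRNA that in human and mouse is expressed from the maternal allele of an imprinted cluster, and RTL1 is a coding gene of that cluster expressed from the paternal one. ENSSSCG00000051274 (chr7:121656237-121691190, plus strand) starts close to the start of the RefSeq gene MEG3 (chr7:121656253-121660495). It had 71.7, 94.9, 83.5 and 108 CPM in pig 14, against 36.2, 29.6, 20.5 and 61.6 CPM in pig 13, a log2 fold change of 1.28 ± 0.32 (adjusted p = 0.0504). Only the pig 13 control site 6b came near pig 14, and the animals did not overlap. The adjusted p ranged from 1.2e-04 (DESeq2) to 0.14 over the alternatives, and it was 0.010 without the pig 13 site 7b and 0.0063 without the pig 13 site 6b. RTL1, whose end faces the gene 15931 bases away, had 1.38, 1.69, 1.52 and 2.10 CPM in pig 14, against 0.854, 0.398, 0.656 and 0.786 CPM in pig 13, and was called at 1.32 ± 0.30 (adjusted p = 0.02). DLK1, on the other side, was not among the genes tested.

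Nearest coding genes were compared with the 90 as a whole. Of the 90, 28 lay within 1000 bases of the nearest coding gene of the deposited annotation, 10 of them head to head, 9 tail to tail and 9 on the same strand (6 after the coding gene and 3 before it). ENSSSCG00000048434 ends 108 bases before the start of ZC3H12A, an RNase that limits inflammatory transcripts, on the same strand. It had 27.7, 37.5, 41.9 and 37.5 CPM in IL-15-injected sites, against 30.6, 29.5, 50.3 and 35.5 CPM in control sites. ZC3H12A had 23.8, 28.4, 28.03 and 22.2 CPM in IL-15-injected sites, against 14.6, 12.9, 49.99 and 12.8 CPM in control sites, and in both the pig 13 control site 7b was the highest. Their log2 fold changes with IL-15 were 0.00 ± 0.14 and 0.29 ± 0.47, neither of which passed the test. Over the 84 genes whose nearest coding gene was tested (77 distinct coding genes), the log2 fold changes of pig 14 over pig 13 had a Spearman correlation of 0.55 and a Pearson correlation of 0.21 with those of the neighbour, as a description across genes of the same libraries. In RefSeq, 33 of the 90 overlap the span of a coding gene, in some cases the same gene as the neighbour used here (MAF and CCM2 among them). Such pairs may not be separate genes, and their part in the correlation was not tested. The Spearman value was 0.28 over the other 2495 tested lncRNA genes with a tested nearest coding gene, which for these could be one that they overlap. The median standard error was 0.12 for the 90 and 0.31 over all tested lncRNA genes. Larger errors lower a correlation, so the values of the 84 and the 2495 are not directly comparable. For IL-15 over control the values were 0.31 for the 84 genes and 0.14 for the 2495. Of the 15 called genes with a tested neighbour 0 had a neighbour called in the same direction and 1, CYS1, had one called in the opposite direction. Of the 77 neighbours 9 were called, and of all tested coding genes 11.2% (6.84% higher and 4.4% lower in pig 14). The 15 include genes that reached the limit in 1 animal only, ENSSSCG00000044599 and ENSSSCG00000047139 among them, so the count is given as a description.

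**Figure D5:**
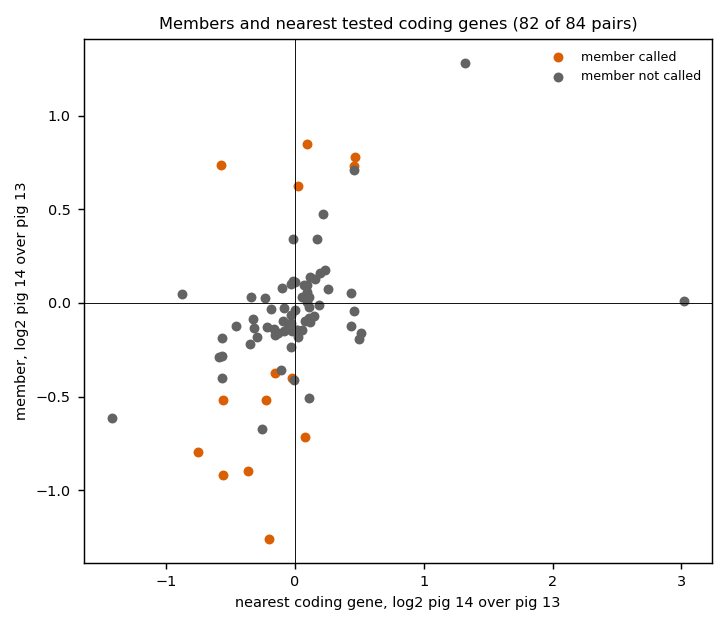
Log2 fold change of pig 14 over pig 13 of each gene (vertical) against that of its nearest tested coding gene (horizontal), with called genes in orange. It draws 82 of the 84 pairs, and ENSSSCG00000044599 and ENSSSCG00000047123, at 12.53 and 7.63, lie outside the axis. The point at the upper right is ENSSSCG00000051274 with RTL1.

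The remaining genes with a symbol were not called in any comparison. S100A16, a calcium-binding protein of epithelia, averaged 122 ± 11.5 CPM in pig 14 and 162 ± 23.2 CPM in pig 13 (SD, n = 4 biopsies each), a log2 fold change of -0.41 ± 0.12 (adjusted p = 0.051). GNG12 and GNG7, which encode G protein gamma subunits, were at -0.13 ± 0.12 and -0.09 ± 0.12 for pig 14 over pig 13. NDUFA7 (a subunit of respiratory complex I) was at -0.11 ± 0.09 and TIMM13 (a chaperone of mitochondrial import) at -0.13 ± 0.10. TANK, an adaptor of innate immune signalling, had 28.5, 31.1, 30.1 and 30.5 CPM in IL-15-injected sites, against 26.4, 30.1, 36.5 and 30.1 CPM in control sites, a log2 fold change with IL-15 of -0.03 ± 0.10. LYPD2, a member of the Ly6 family, had 18.3, 31.6, 36.2 and 23.7 CPM in IL-15-injected sites, against 18.97, 20.2, 53.1 and 23.2 CPM in control sites, where the pig 13 control site 7b again stood above the rest, and its log2 fold change with IL-15 was -0.01 ± 0.33. LOC100525309 starts 208 bases from MORC2 on the opposite strand in the deposited annotation, but overlaps the RefSeq span of MORC2. Of the others, LOC100525309 was at -0.09 ± 0.09 with IL-15, PAIP2B (an inhibitor of translation) at 0.00 ± 0.11, TMEM18 at 0.03 ± 0.09, TMEM250 at -0.003 ± 0.10, TMEM80 at 0.12 ± 0.10, PHF20 at -0.11 ± 0.09, LOC110260611 at -0.02 ± 0.14, LOC100620498 at 0.18 ± 0.09 and LOC100517712 at 0.06 ± 0.13.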

How the data were processed

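Whole skin biopsies were profiled by RNA-seq, 4 IL-15-injected and 4 control, from 2 pigs. Per the submitters' processing notes, bcl2fastq, STAR 2.5.1a, featureCounts 1.4.6-p5 of Subread and the build Sscrofa11.1 were used. The authors deposited read counts for Ensembl genes as whole numbers, and per the file headers also CPM and RPKM for each biopsy, which were only compared with the counts. The file of the pig 13 control site 7b holds 607 genes, and its counts were taken from the table of all biopsies. Of 32388 rows in that table, 425 genes stood on several with equal counts and were kept once.

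From the counts, edgeR 4.0.16 (R 4.3.3) filtered genes with filterByExpr, scaled by TMM and ran the robust quasi-likelihood F test with treatment and pig in the model. DESeq2 1.42.0, other scalings, no filter, a model without the block and leaving out each biopsy were alternatives. The steps were tested on simulated data. The pig is the block because the labels name the animal of each biopsy. Deviations from group means correlated at 0.25 to 0.54 within a pig and -0.49 to -0.28 across pigs. The deviations of a group sum to 0, so positive values within a pig bring negative ones across pigs, which are not separate evidence. Every pair of biopsies of a group differed beyond sampling noise (lowest chi-square per degree of freedom 29.8). The biological coefficient of variation was 19.8%.

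The members and lists were chosen with earlier results of these data known. Named were genes called in a fit, the 12 most abundant, those with the 5 smallest p per direction, those with a symbol (values of a few genes are not reported here), their coding neighbours and the genes at the limit. Other named genes (RN18S, Y-linked and marker genes, and members with a snoRNA or microRNA gene, on the X chromosome or at a single biopsy) were added once their values were known. The sources used here do not give the strand setting of the counting. RefSeq genes carry no strand in the table used.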

Additional observations from a re-analysis of the deposited data

Results flagged for a closer look

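Within groups of 4 biopsies, 10 of 180 groups had a single biopsy far from the other 3 by Dixon's test of the gap over the range, 5.6%, where chance gives about 1 in 20. The test takes the 4 biopsies as a single sample and ignores that they come from 2 animals. Of these 10, 4 concerned the pig 13 control site 7b. There ENSSSCG00000044913 had 708.7 CPM, against 293 to 303 CPM in the other control sites (ratio 0.976), LYPD2 53.1 CPM against 18.97 to 23.2 CPM (0.876), NDUFA7 34.3 CPM against 28.7 to 29.5 CPM (0.852) and TIMM13 34.5 CPM against 26.9 to 27.7 CPM (0.888). In the pig 14 control site 6b, ENSSSCG00000047123 had 194.4 CPM against 0.0546 to 0.495 CPM (0.998) and ENSSSCG00000047735 had 286 CPM against 0.363 to 14.3 CPM (0.951). In the pig 14 control site 7e, ENSSSCG00000046470 was low at 18.6 CPM against 24.1 to 24.5 CPM (0.939). Among injected sites, the pig 13 site 12c was high for TIMM13 at 36.0 CPM against 31.0 to 31.5 CPM (0.901) and for ENSSSCG00000041449 at 26.5 CPM against 15.5 to 17.2 CPM (0.841). The pig 14 site 12c was high for ENSSSCG00000051090 at 79.7 CPM against 69.3 to 70.9 CPM (0.844).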

How the results depend on the processing

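The counts of called genes for IL-15 were 0 in each direction under every alternative run. Between the animals, 29 genes were called lower, in place of 9, with scaling by total counts alone. Leaving out 1 biopsy at a time gave 5 to 11 genes higher and 5 to 11 lower in pig 14, with 5 higher without the pig 13 site 12e or 12c and 5 lower without the pig 14 site 12d or the pig 13 site 12e, and 0 to 1 genes with a different response, the 1 being ENSSSCG00000044913 without the pig 13 site 6b. Without the block the calls were 9 higher and 9 lower between the animals and 0 for IL-15, and ENSSSCG00000044841 (-0.37) and ENSSSCG00000045913 (0.75) were no longer called, while ENSSSCG00000051274, S100A16 and ENSSSCG00000041715 were. It changed no other call among the 90. Log2 fold changes with IL-15 near 0 changed sign. ENSSSCG00000048434 was at -0.013 without the block and ranged from -0.11 to 0.14 with a biopsy left out, ENSSSCG00000041461 from -0.14 to 0.094, ENSSSCG00000047432 from -0.075 to 0.046 and ENSSSCG00000047123 from -6.69 to 0.63. The cause of these changes was not tested. The 90 genes became 96 with ribosomal and mitochondrial genes left out of the total, 89 with TMM-scaled totals, 84 with repeated rows counted each time (chosen after seeing the data) and 86 to 91 with a biopsy left out. Their share of counts was 6.26% ± 0.79 in injected and 7.08% ± 0.80 in control sites (SD, n = 4 each), and 6.52% and 7.43% without ribosomal and mitochondrial genes in the total.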
